A study of Mus musculus with 10 samples.

Results

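The 29 genes described here encode the phototransduction, outer segment and transcription factor proteins of rod and cone photoreceptors, the light-sensing cells of the retina. They were chosen by symbol, from textbook knowledge of these cells, among the 23258 gene symbols of the table, and all 29 had an entry. For the counts below, 14 were listed as rod genes, 4 as used by rods and cones alike and 11 as cone genes. A gene on the rod or cone list may also be made in the other cell type. The libraries were not made from photoreceptors: they came from retinal ganglion cells, whose axons form the optic nerve, sorted by flow cytometry from C57BL/6 mice at postnatal day 6, with about 1000 cells per sample. The knockout mice were Satb1-/- and carried the Hb9-GFP reporter (5 libraries). The wild-type mice carried the same reporter and intact Satb1 (5 libraries). The reporter places green fluorescent protein under the promoter of Hb9 (Mnx1) and labels a subset of ganglion cells, so any other cell that entered the sort gate also contributed RNA. The replicates of each genotype came from separate litters, and the part of Satb1 that the knockout lacks is not given in the sources used here.

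Rods and cones share one signalling design with separate genes for most steps. An opsin activates the G protein transducin, transducin removes an inhibitory subunit from a cyclic GMP phosphodiesterase, and the fall in cyclic GMP closes a cation channel of the outer segment. Arrestin and the calcium-binding proteins end the response. The homeobox factor Crx acts in both cell types, Nrl and its target Nr2e3 set the rod fate, and rods are by far the most numerous cells of the mouse retina. At the end of the first postnatal week rods are still maturing, and many phototransduction transcripts are still below their adult level.

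The promoters of 4 of the genes are shown because Crx and Nrl are known to act on photoreceptor promoters and because the levels of all 4 genes differed widely between libraries. Rom1 and Sag were taken for their high maximum level, while Nr2e3 and Crx were chosen after the values were seen. The windows come from RefSeq on GRCm38.p6 and run from 250 bases before the transcription start to 50 bases after it, written 5′ to 3′ on the strand of the gene. Capitals mark the Crx motif core TAATCC and the Nrl motif core TGCTGA, read on both strands as TAATCC or GGATTA and TGCTGA or TCAGCA.
Sag (chr1:87803430-87803729, plus strand): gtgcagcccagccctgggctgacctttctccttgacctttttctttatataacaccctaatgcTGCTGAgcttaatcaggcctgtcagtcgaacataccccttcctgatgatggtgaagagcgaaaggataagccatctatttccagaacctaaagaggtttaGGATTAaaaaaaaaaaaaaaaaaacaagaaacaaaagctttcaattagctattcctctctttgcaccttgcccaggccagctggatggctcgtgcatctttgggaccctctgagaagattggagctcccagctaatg
Crx (chr7:15879906-15880205, minus strand): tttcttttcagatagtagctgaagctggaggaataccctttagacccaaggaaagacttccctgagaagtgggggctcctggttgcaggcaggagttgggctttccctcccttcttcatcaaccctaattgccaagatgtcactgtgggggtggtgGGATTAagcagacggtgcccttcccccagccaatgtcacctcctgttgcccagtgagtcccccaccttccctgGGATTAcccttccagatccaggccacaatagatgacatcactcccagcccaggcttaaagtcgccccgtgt
Nr2e3 (chr9:59950030-59950329, minus strand): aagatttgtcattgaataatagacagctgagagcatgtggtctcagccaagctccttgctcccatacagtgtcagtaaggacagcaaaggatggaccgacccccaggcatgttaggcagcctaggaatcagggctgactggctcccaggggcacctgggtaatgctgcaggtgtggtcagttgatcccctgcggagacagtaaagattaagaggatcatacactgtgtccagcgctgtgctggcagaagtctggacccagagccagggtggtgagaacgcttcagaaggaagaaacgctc
Rom1 (chr19:8929307-8929606, minus strand): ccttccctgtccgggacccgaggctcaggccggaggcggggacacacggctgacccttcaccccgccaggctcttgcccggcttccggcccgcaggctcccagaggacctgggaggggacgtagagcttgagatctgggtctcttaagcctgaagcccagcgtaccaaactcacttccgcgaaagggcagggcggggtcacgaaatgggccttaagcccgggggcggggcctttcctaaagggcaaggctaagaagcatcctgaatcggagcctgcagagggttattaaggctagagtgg
Sag held 1 Crx core and 1 Nrl motif core, and the window of Crx held 2 Crx cores. No match to these letters was found in the windows of Nr2e3 and Rom1. RefSeq windows were at hand for 19 of the 29 genes. The Crx core was present for 7 of the 19 (36.8%) and in 7.06% of all 32851 mouse promoter windows, and the Nrl motif core for 3 of the 19 (15.8%) and in 19.5% of all windows. A match is a description of the letters and does not show that a factor binds there.

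Values are in TPM, a transcript abundance scaled for gene length and for the library total. Ganglion cell markers were abundant in every library. Of 15 such markers, 14 or 15 reached 10 TPM in each library. Their sum ran from 18154 to 102142 TPM in knockout and from 17576 to 30880 TPM in wild-type libraries. Of the highest sum, in knockout 3, Nefl alone held 94381 TPM. In wild-type 5 only 8 of the 15 markers reached 50 TPM, against 11 to 15 in the other libraries. Pou4f2 was at 45.2 TPM in wild-type 5, its lowest level, while Sncg was at 3953 TPM there, its highest. Satb1, the targeted gene (chromosome 17, 51736187 to 51833290, minus strand, mm10), stood at 87.8 ± 61.6 TPM in knockout and 216 ± 147 TPM in wild-type libraries (SD, n = 5 each; two-sided exact permutation p = 0.135), so its level did not separate the genotypes. Knockout 4, knockout 5 and wild-type 5 stood apart from the other libraries on the first principal component of all tested genes, which held 32.9% of the variance. Their scores ran from 88.03 to 149, against -14.2 at most elsewhere. The numbers of sequenced reads are unknown, and a value of 0 may be a failed estimate, so single library values are given wherever a gene was listed at 0.

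Photoreceptor transcripts were present at low levels, and their amount differed widely between libraries of one genotype. The 29 genes together took 440, 166, 823, 670 and 118 TPM in knockout 1 to 5, and 158, 70.7, 120, 619 and 1232 TPM in wild-type 1 to 5. In percent of the library, that is 0.00707% in wild-type 2 and 0.123% in wild-type 5. Each genotype thus held libraries with much and libraries with little photoreceptor RNA, and the ranges overlapped. In such bulk samples fewer photoreceptors and less photoreceptor RNA per cell cannot be told apart. The number of genes at or above 10 TPM was 12, 3, 14, 10 and 2 in knockout 1 to 5 and 2, 1, 2, 11 and 16 in wild-type 1 to 5. Of the 290 single values, 79 were 0, and Opn1mw, the middle-wavelength cone opsin, was listed at 0 in all 10 libraries.

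**Figure D1:**
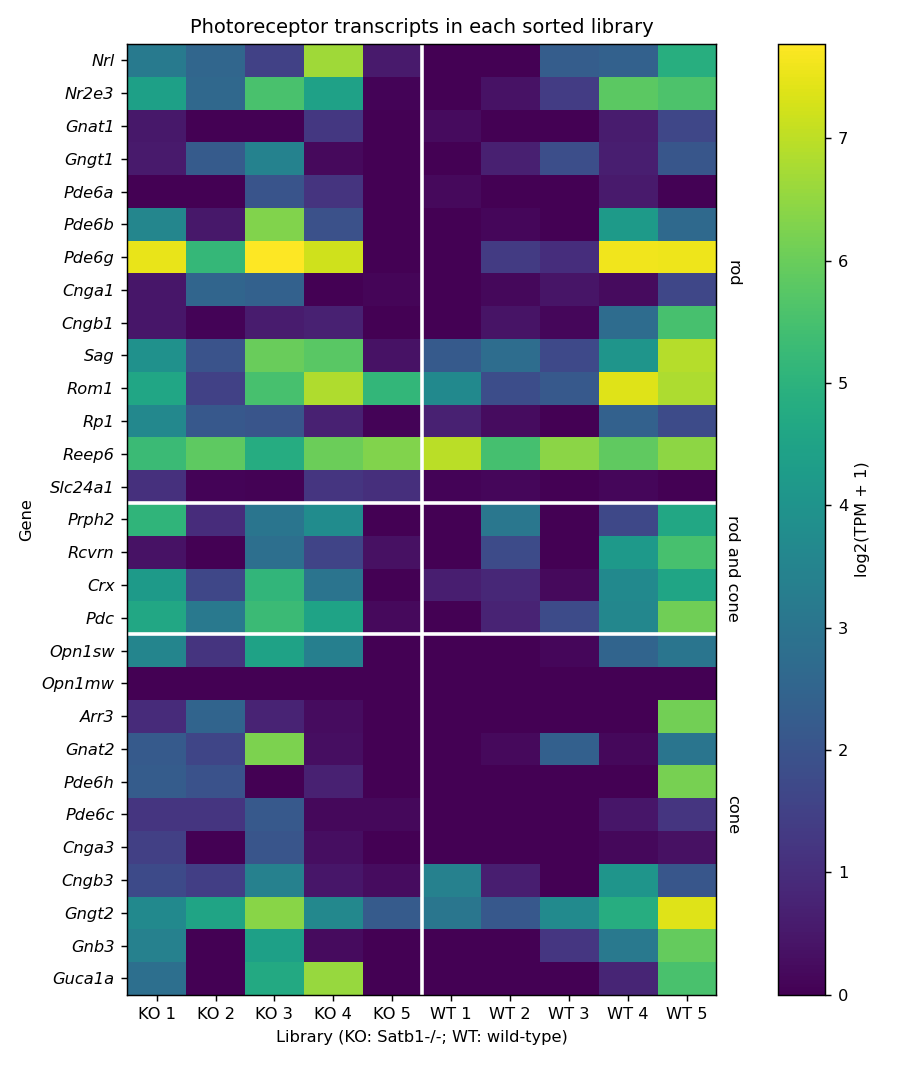
Level of each of the 29 photoreceptor genes (rows) in each library (columns; KO, knockout; WT, wild-type), in log2(TPM + 1), with rod genes on top, genes of both cell types in the middle and cone genes below. Knockout 1, 3 and 4 and wild-type 4 and 5 have more bright rows than the other libraries, while Reep6 is bright in every library.

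The rod transcription factors varied by library. Nr2e3, the nuclear receptor that represses cone genes in rods (chromosome 9, 59942771 to 59960659, minus strand), was at 20.3, 5.19, 45.2, 20.8 and 0.05 TPM in knockout 1 to 5 and at 0, 0.295, 1.59, 55.5 and 47.2 TPM in wild-type 1 to 5. Its knockout libraries spanned nearly the whole range of the wild-type ones, and knockout 5 lay beside wild-type 1 and 2 at the bottom. Crx, the homeobox factor of both photoreceptor types (chromosome 7, 15865947 to 15879968, minus strand), was at 17.99, 2.17, 33.5, 6.93 and 0 TPM in knockout and at 0.56, 0.837, 0.142, 12.02 and 22.8 TPM in wild-type libraries. Crx was high and low in much the same libraries as Nr2e3. Nrl, the leucine zipper factor that sets rod fate (chromosome 14, 55518978 to 55524981, minus strand), was at 8.22, 4.88, 1.85, 100.02 and 0.465 TPM in knockout and at 0, 0, 3.94, 4.31 and 28.0 TPM in wild-type libraries. Nrl departed from Nr2e3, since 65.9% of its summed level came from knockout 4 alone and it was low in knockout 3 and wild-type 4, where Nr2e3 was high.

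Pde6g, the inhibitory subunit of the rod phosphodiesterase (chromosome 11, 120447605 to 120453500, minus strand), reached the highest level of all 29 genes. It was at 182, 35.0, 217, 149 and 0 TPM in knockout 1 to 5 and at 0, 1.56, 1.01, 192 and 189 TPM in wild-type 1 to 5. The libraries fell into separate clusters: on the log2(TPM + 1) scale 4 lay at or below 1.35 and 6 at or above 5.17, with both genotypes on either side of the gap. For that reason no correlation over libraries is given. Pde6b, the catalytic beta subunit of the same enzyme (chromosome 5, 108388391 to 108432397, plus strand), was at 10.8, 0.419, 77.3, 2.79 and 0 TPM in knockout and at 0, 0.0964, 0, 17.9 and 5.28 TPM in wild-type libraries. Pde6b was thus above 2 TPM in the same 5 libraries that held over 100 TPM of Pde6g. Pde6a, the other catalytic subunit, stayed between 0 and 3.03 TPM.

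Sag, the rod arrestin (chromosome 1, 87803680 to 87845158, plus strand), was found in every library, at 14.3, 3.003, 63.0, 54.1 and 0.311 TPM in knockout and at 3.62, 5.91, 2.26, 15.7 and 119 TPM in wild-type libraries. Pdc, the transducin-binding protein phosducin (chromosome 1, 150319417 to 150333906, plus strand), was at 24.4, 7.84, 38.0, 21.7 and 0.158 TPM in knockout and at 0, 0.704, 2.46, 11.1 and 67.6 TPM in wild-type libraries. Both genes were highest in wild-type 5 and next highest in knockout 3, and both were lowest or second lowest in knockout 5. Rcvrn, the calcium sensor recoverin (chromosome 11, 67695326 to 67703333, plus strand), was at 0.31, 0, 6.16, 2.04 and 0.266 TPM in knockout and at 0, 2.46, 0, 17.0 and 44.7 TPM in wild-type libraries. Rcvrn was low in knockout 1, where Pde6g, Pdc and Crx were high.

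Transcripts of outer segment structure were less uniform. Rom1, a tetraspanin of the disc rim (chromosome 19, 8927391 to 8929356, minus strand), was at 23.3, 1.82, 44.2, 114 and 34.2 TPM in knockout and at 11.8, 2.56, 3.48, 165 and 110.4 TPM in wild-type libraries. Unlike Pde6g, Rom1 was at 34.2 TPM in knockout 5, where Pde6g and Crx were listed at 0. Its partner Prph2, peripherin 2 (chromosome 17, 46910459 to 46924933, plus strand), was at 32.6, 0.974, 7.12, 12.6 and 0 TPM in knockout and at 0, 7.43, 0, 2.23 and 24.2 TPM in wild-type libraries. Rp1, a microtubule-associated protein of the photoreceptor axoneme (chromosome 1, 3999557 to 4409241, minus strand), was at 11.4, 3.40, 3.18, 0.627 and 0.0495 TPM in knockout and at 0.632, 0.193, 0, 4.38 and 2.46 TPM in wild-type libraries. Both genes had their highest level in knockout 1.

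Reep6 did not follow the other rod genes. Reep6, an endoplasmic reticulum protein with an isoform made in rods (chromosome 10, 80329953 to 80336441, plus strand), was at 38.5, 56.7, 26.8, 64.7 and 77.6 TPM in knockout 1 to 5 and at 124, 43.4, 84.7, 57.1 and 87.2 TPM in wild-type 1 to 5. It was highest in wild-type 1, where Pde6g, Nr2e3, Nrl and Pdc were listed at 0, and lowest in knockout 3, where Pde6g peaked. Its means of 52.9 ± 20.3 TPM in knockout and 79.2 ± 31.0 TPM in wild-type libraries (SD, n = 5 each) lay within overlapping ranges, and its isoforms are not separated in the table. In knockout 2, knockout 5 and wild-type 1 to 3, Reep6 was the most abundant of the 14 rod genes, and Pde6g was in the other 5 libraries.

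The channel subunits and the rod transducin genes were near the lower end. Cngb1, the beta subunit of the rod cyclic GMP-gated channel (chromosome 8, 95239045 to 95306585, minus strand), was at 0.398, 0.0538, 0.505, 0.655 and 0 TPM in knockout and at 0, 0.319, 0.0945, 5.74 and 44.6 TPM in wild-type libraries, so 85.2% of its summed level lay in wild-type 5. Gngt1, the rod transducin gamma subunit (chromosome 6, 3993792 to 3997436, plus strand), was at 0.471, 3.71, 10.01, 0.153 and 0 TPM in knockout and at 0, 0.598, 2.68, 0.572 and 3.19 TPM in wild-type libraries. Neither gene was high in all libraries with over 100 TPM of Pde6g. Gnat1, the rod transducin alpha subunit, Cnga1, the alpha subunit of the channel, and Slc24a1, the rod sodium/calcium-potassium exchanger, peaked at 2.16, 4.75 and 1.28 TPM and, with Pde6a, never reached 10 TPM.

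Among cone genes, Opn1sw, the short-wavelength opsin (chromosome 6, 29376671 to 29388468, minus strand), came closest to the rod pattern. It was at 10.6, 1.25, 21.1, 9.29 and 0 TPM in knockout 1 to 5 and at 0, 0, 0.0924, 4.70 and 7.05 TPM in wild-type 1 to 5. As for Pde6g, its 5 highest values were those of knockout 1, 3 and 4 and wild-type 4 and 5. Part of an exon of Calu, on the opposite strand, overlaps Opn1sw in GENCODE M21. Calu was at 54.2, 154, 18.9, 18.6 and 17.8 TPM in knockout and at 61.8, 53.9, 57.8, 19.9 and 17.2 TPM in wild-type libraries. The share of such reads in the value of Opn1sw was not tested.

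Other cone genes were concentrated in single libraries. Arr3, cone arrestin (chromosome X, 100605497 to 100618493, plus strand), was at 0.949, 4.65, 0.716, 0.206 and 0 TPM in knockout and at 0, 0, 0, 0 and 68.5 TPM in wild-type libraries. Pde6h, the inhibitory subunit of the cone phosphodiesterase (chromosome 6, 136923832 to 136968865, plus strand), was at 3.79, 2.89, 0, 0.63 and 0 TPM in knockout and at 0, 0, 0, 0 and 71.7 TPM in wild-type libraries. Wild-type 5 held 91.3% of the summed level of Arr3 and 90.7% of that of Pde6h. Gnat2, the cone transducin alpha subunit (chromosome 3, 108092789 to 108101432, plus strand), was instead highest in knockout 3, with 3.62, 2.08, 73.8, 0.219 and 0 TPM in knockout and 0, 0.158, 4.24, 0.114 and 7.04 TPM in wild-type libraries. Gnb3, the cone transducin beta subunit (chromosome 6, 124834240 to 124840275, minus strand), was at 9.77, 0, 20.2, 0.164 and 0 TPM in knockout and at 0, 0, 1.35, 7.82 and 60.0 TPM in wild-type libraries. Guca1a, an activator of guanylate cyclase (chromosome 17, 47394558 to 47400584, minus strand), was at 6.08, 0, 25.2, 93.3 and 0 TPM in knockout and at 0, 0, 0, 0.741 and 45.9 TPM in wild-type libraries. Which cone gene was high therefore differed from library to library, although these 5 genes were at or below 0.158 TPM in knockout 5 and wild-type 1 and 2.

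Gngt2 and Cngb3 were the cone genes seen most widely. Gngt2, the cone transducin gamma subunit (chromosome 11, 95837216 to 95845734, plus strand), was found in all 10 libraries, at 11.9, 22.3, 83.6, 11.3 and 3.67 TPM in knockout and at 7.24, 3.41, 12.1, 27.6 and 167 TPM in wild-type libraries. Cngb3, the cone channel beta subunit (chromosome 4, 19280850 to 19510623, plus strand), was at 2.37, 1.69, 9.73, 0.396 and 0.203 TPM in knockout and at 9.69, 0.574, 0, 15.4 and 3.18 TPM in wild-type libraries. Cngb3 was the most abundant cone gene of wild-type 1, a library with Pde6g at 0. Exons of Abi3 and Arhgdib, on the opposite strand, overlap Gngt2 and Pde6h in GENCODE M21, and reads of such pairs may not have been told apart. Abi3 was at 0, 3.79, 0, 0.547 and 1.75 TPM in knockout and at 12.9, 1.06, 0, 45.5 and 2.48 TPM in wild-type libraries. Arhgdib was at 1.53, 38.5, 0, 2.03 and 58.4 TPM in knockout and at 69.3, 13.2, 0.256, 35.8 and 13.9 TPM in wild-type libraries. Abi3 peaked in wild-type 4, where Gngt2 was at 27.6 TPM, and Arhgdib in wild-type 1, where Pde6h was listed at 0. Pde6c, the catalytic subunit of the cone phosphodiesterase, and Cnga3, the cone channel alpha subunit, peaked at 3.52 and 3.18 TPM, both in knockout 3.

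The question whether rod genes were high and low in the same libraries was examined by counting, in each library, the genes above their own median over all 10 libraries. Of the 14 rod genes, 10, 4, 10, 11 and 3 were above their median in knockout 1 to 5, and 3, 2, 3, 11 and 13 in wild-type 1 to 5. For the 10 cone genes with any value above 0, these counts were 9, 5, 9, 5 and 0 in knockout and 1, 0, 3, 7 and 10 in wild-type libraries. The tested genes as a whole did not show this order: the share above their own median was 57.3%, 57.1%, 39.1%, 38.9% and 26.7% in knockout and 71.7%, 69.2%, 58.9%, 48.5% and 32.5% in wild-type libraries. Wild-type 1 and 2, with the largest shares of all genes above the median, had few rod genes above theirs, and wild-type 5, with one of the smallest shares, had 13 of 14. The summed level of the rod genes was 312, 119, 497, 511 and 114 TPM in knockout and 140.1, 55.1, 100.1, 520 and 641 TPM in wild-type libraries. That of the cone genes was 52.2, 36.1, 241, 116 and 3.98 TPM in knockout and 16.9, 4.14, 17.7, 57.0 and 432 TPM in wild-type libraries. Rod and cone sums were both highest in wild-type 5, and wild-type 2 had the lowest rod sum and knockout 5 the lowest cone sum. Reep6, which did not follow the other rod genes, made up most of the rod sum in the poorest libraries. It held 77.6 TPM in knockout 5 and 124, 43.4 and 84.7 TPM in wild-type 1 to 3.

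**Figure D2:**
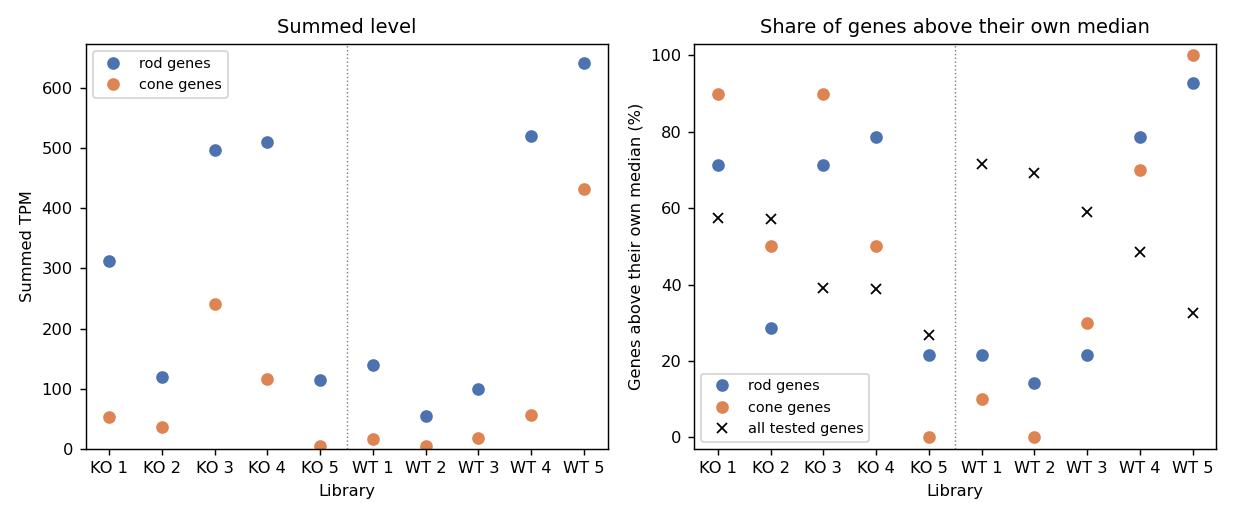
Summed TPM of the 14 rod and 11 cone genes in each library (left) and the percentage of rod genes, cone genes with any value above 0 and all 11744 tested genes that lay above their own median over the 10 libraries (right). Rod points are high in knockout 1, 3 and 4 and wild-type 4 and 5 in both panels. Cone sums are highest in wild-type 5 and knockout 3, followed by knockout 4. Cone percentages are highest in knockout 1 and 3 and wild-type 4 and 5, with 5 of 10 genes in both knockout 2 and knockout 4. The crosses for all tested genes are highest in wild-type 1 and 2.

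How steadily the genes kept their proportions was described by setting each against Pde6g in the 6 libraries where Pde6g was at or above 10 TPM (knockout 1 to 4 and wild-type 4 and 5). Nr2e3 kept the steadiest ratio, at 0.111, 0.148, 0.208 and 0.14 in knockout 1 to 4 and 0.289 and 0.249 in wild-type 4 and 5, a 2.59-fold range. The ratio of Crx covered a 3.31-fold range, that of Opn1sw a 3.97-fold range, that of Pdc a 6.19-fold range and that of Sag an 8.04-fold range. For Rom1 the range was 16.6-fold, for Pde6b 29.7-fold and for Nrl 79.1-fold. Nr2e3, Crx and Opn1sw thus went with Pde6g within a few-fold, while several genes of the same cells departed from it by over an order of magnitude in single libraries. Counting error cannot be set against these ranges because the depth is unknown, and cDNA amplification before library construction adds spread of its own.

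**Figure D3:**
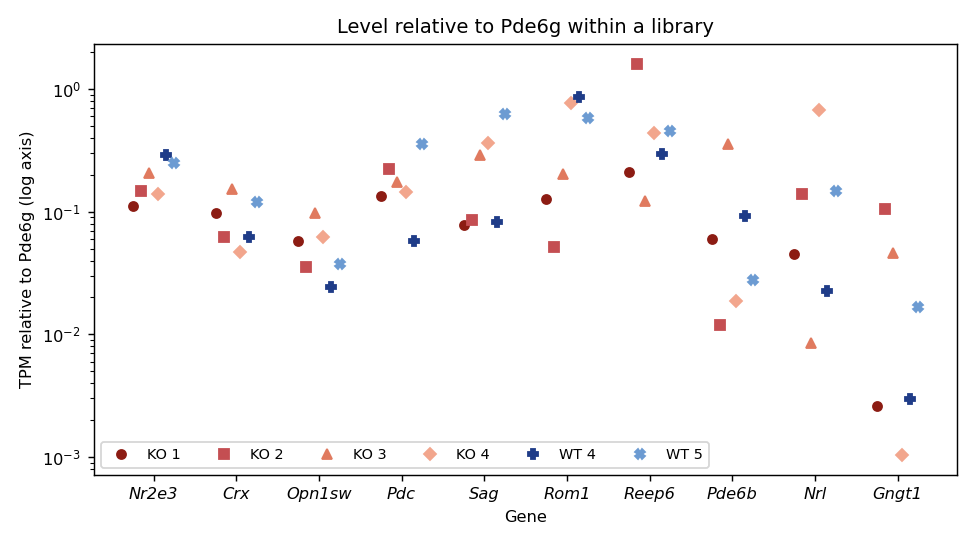
Level of 10 photoreceptor genes relative to Pde6g (TPM over TPM, log axis) in the 6 libraries with at least 10 TPM of Pde6g; each symbol is 1 library. Nr2e3 ratios lie between 0.111 and 0.289, whereas those of Gngt1 run from 0.00103 to 0.106.

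Between genotypes, no photoreceptor gene passed the test. The test took genes that reached 1 TPM in 5 or more libraries, which left 17 of the 29 (8 rod genes, 4 of both cell types and 5 cone genes). The other 12 have no test. By limma on log2(TPM + 1), 0 of the 17 had a Benjamini-Hochberg adjusted p under 0.05, against 0 of 11744 over all tested genes (0%). At an unadjusted p under 0.05 there were 0 of 17, against 389 of 11744 (3.31%). Libraries of the genotypes overlapped for all 29 genes, where 0.502% of all tested genes did not overlap. By log2 difference, knockout was higher for 12 of these 17 genes and lower for 5, where 32.6% of all tested genes were higher. The 8 rod genes had 7 higher and 1 lower and a median log2 difference of 0.74, and the 5 cone genes had 2 higher and 3 lower and a median of -0.13, beside -0.31 for all tested genes. Leaving out 1 library at a time gave rod medians between 0.04 (without knockout 4) and 1.33 (without knockout 5) and cone medians between -0.71 (without knockout 3) and 0.66 (without wild-type 5). Median centring of the libraries, which brought the median of all genes to 0.07 and the share of higher genes to 53.9%, gave 13 higher and 4 lower, with medians of 1.11 for rod and 0.25 for cone genes. Over all members with any value, tested or not, 11 of 14 rod genes and 5 of 10 cone genes were higher, with median differences of 0.54 and 0.26, beside 7315 of all 18955 such genes (38.6%) and a median of -0.13. Beside these counts, 3 of 5 knockout and 2 of 5 wild-type libraries held over 100 TPM of Pde6g.

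The 5 genes with the smallest p are given in full. Opn1sw had a log2 difference of 1.38 (SE 0.90; limma Benjamini-Hochberg adjusted p = 0.992), with knockout libraries up to 21.1 TPM and wild-type libraries up to 7.05 TPM. Pde6g had a log2 difference of 2.03 (SE 1.53, 95% interval -1.17 to 5.23), and Pdc one of 1.11 (SE 1.12, 95% interval -1.23 to 3.45). Lower in knockout by their log2 difference were Rcvrn, at -1.26 (SE 0.97, 95% interval -3.28 to 0.76), and Reep6, at -0.58 (SE 0.58, 95% interval -1.79 to 0.63). Single libraries moved several of these values by over 1.5 times. The difference of Pde6g was 1.16 without wild-type 1, 3.05 without wild-type 4 or wild-type 5 and 3.42 without knockout 5. That of Pdc was 0.50 without wild-type 1, 0.68 without knockout 3, 0.69 without wild-type 2, 1.95 without knockout 5 and 2.02 without wild-type 5. That of Opn1sw was 0.89 and that of Reep6 -0.36 without knockout 3. Library weights gave 4.04 for Pde6g, 2.5 for Pdc, 2.31 for Opn1sw and -0.36 for Rcvrn, and median centring gave -0.20 for Reep6. Adding 0.1 TPM before the log in place of 1 TPM gave 2.42 for Opn1sw. Adding 5 TPM gave 0.72 for Opn1sw and 0.63 for Pdc. In the fit of all libraries, all 5 had the same limma Benjamini-Hochberg adjusted p of 0.992, and all intervals held 0. The intervals of Pde6g and Pdc still held 8-fold differences in one direction, so the test says little on the size of any genotype effect.

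**Figure D4:**
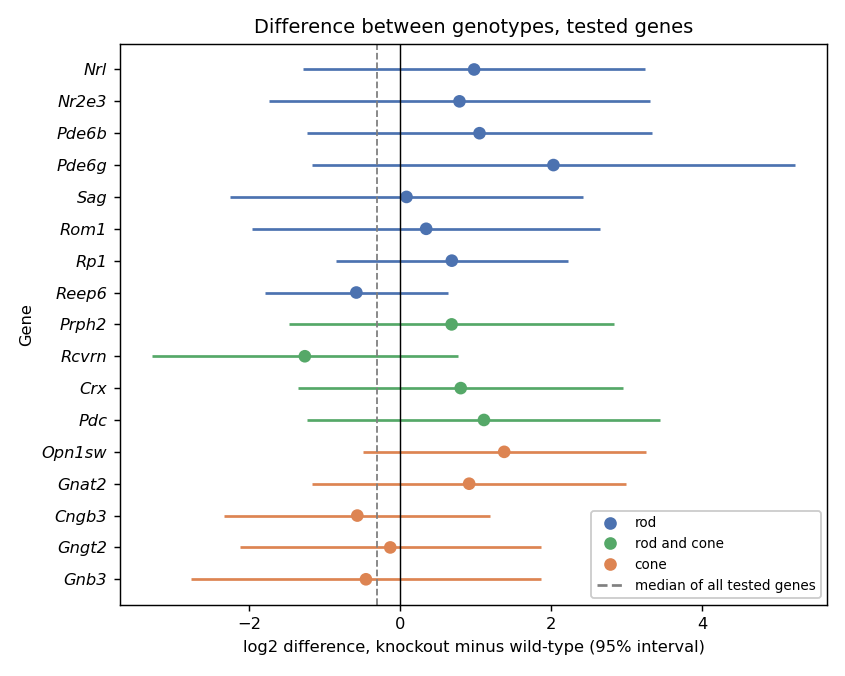
Log2 difference between knockout and wild-type libraries (knockout minus wild-type, 95% interval from limma, n = 5 each) for the 17 tested photoreceptor genes, with the median of all tested genes as a dashed line at -0.31. Every interval crosses 0, and 12 of the 17 points lie to the right of it.

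Without knockout 4, knockout 5 and wild-type 5, which stood apart on the first component, 9 of the genes were tested in 3 knockout and 4 wild-type libraries. Pde6g then had a log2 difference of 4.33 (SE 1.47) and Pdc one of 2.83 (SE 0.96), each with a limma Benjamini-Hochberg adjusted p of 0.987. At an unadjusted p under 0.05 these were the 2 genes of the 9, beside 4.4% of the 10920 genes tested in these libraries. This removal takes out the knockout library with the lowest rod sum (knockout 5, 114 TPM) and the wild-type library with the highest (wild-type 5, 641 TPM). It also takes out knockout 4, which had the highest rod sum of the knockout libraries (511 TPM). The median difference was 1.27 for 6 rod genes and 0.81 for 2 cone genes, beside -0.22 for all genes.

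**Figure D5:**
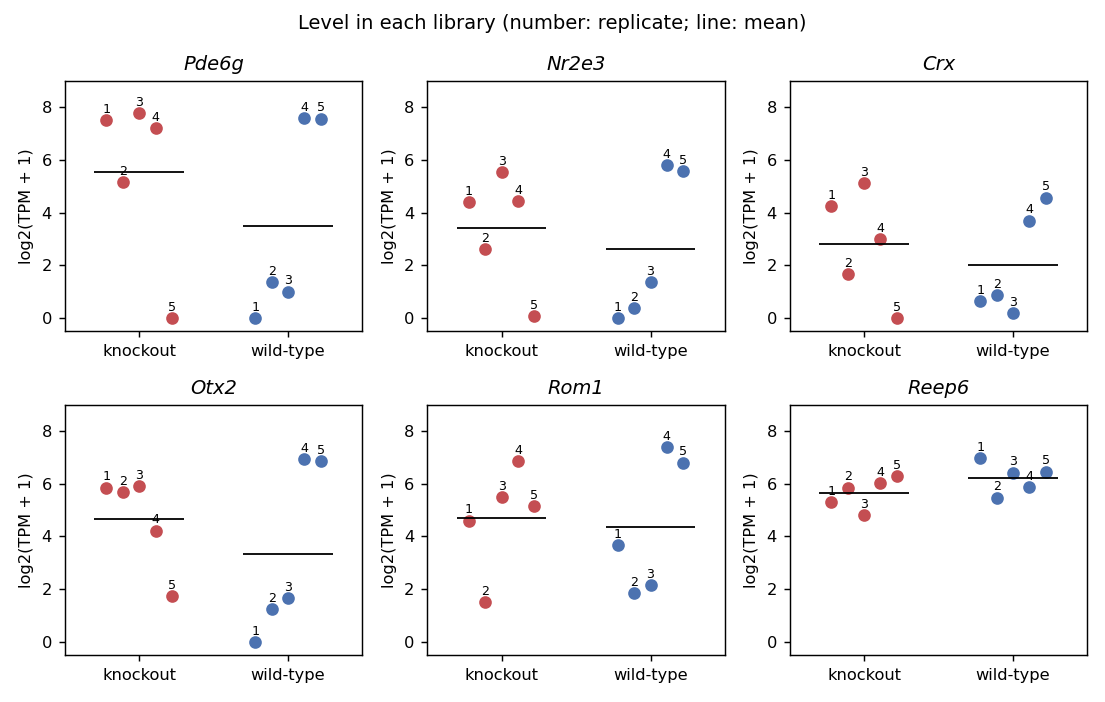
Level of 6 genes in each library, in log2(TPM + 1), for knockout (left, red) and wild-type (right, blue); numbers give the replicate and the line the mean of 5. Pde6g, Nr2e3, Crx and Otx2 are low in knockout 5 and wild-type 1 to 3, and Reep6 varies little.

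A list of 46 further photoreceptor genes was set beside these. Of its 29 tested members 10 were higher and 19 lower in knockout, with a median log2 difference of -0.18, beside 32.6% higher and a median of -0.31 for all tested genes. Median centring turned the direction, with 19 higher and 10 lower and a median of 0.20, beside 53.9% higher and 0.07 for all tested genes. Without knockout 4, knockout 5 and wild-type 5, 16 of 24 were higher, with a median of 0.40, beside 37.6% and -0.22 for all genes. In the fit of all libraries 0 passed at a limma Benjamini-Hochberg adjusted p under 0.05. The 3 with the smallest p were Thrb, a thyroid hormone receptor that acts in cone opsin choice, with a log2 difference of -2.29 (SE 0.90), Mpp4, a scaffold protein of the photoreceptor synapse, with 1.52 (SE 0.67), and the guanylate cyclase gene Gucy2e, with -1.14 (SE 0.54). The limma adjusted p of each was 0.992. The 3 with the highest maximum were Gnb1, the rod transducin beta subunit, at 1564 TPM in knockout 1, Rorb, a nuclear receptor of rod and other retinal development, at 613 TPM in knockout 2, and Unc119, a lipid-binding trafficking protein, at 245 TPM in wild-type 5. Gnb1 and Rorb are known to be made in other neurons as well, and both were at over 100 TPM in wild-type 1 to 3.

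The longer list followed Pde6g across libraries only in part. Of its 46 genes, 35, 23, 31, 14 and 3 were above their own median in knockout 1 to 5 and 15, 20, 16, 32 and 30 in wild-type 1 to 5. The highest counts were those of knockout 1 and 3 and wild-type 4 and 5, all rich in Pde6g. Knockout 4, also rich in Pde6g, stood lowest but one. The sum of the list did not follow Pde6g. This sum, which Gnb1 led in 8 libraries, was 637 TPM in knockout 4 and 1142 TPM in wild-type 5, beside 1262 to 1799 TPM in wild-type 1 to 3. Otx2 and Rbp3, picked out after their values were seen, did run high and low in much the same libraries as Pde6g. Otx2, the homeobox factor upstream of Crx, also made in bipolar cells, was at 56.8, 49.95, 58.6, 17.6 and 2.34 TPM in knockout 1 to 5 and at 0, 1.34, 2.14, 120.3 and 115 TPM in wild-type 1 to 5. Rbp3, the retinoid-binding protein of the matrix around photoreceptors, was at 122, 9.25, 94.7, 17.2 and 2.28 TPM in knockout and at 0, 1.58, 1.01, 136 and 136 TPM in wild-type libraries. Both were highest in wild-type 4 and 5 and at or below 2.34 TPM in knockout 5 and wild-type 1 to 3.

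Markers of other cells that a sort can carry along had other orders. The 12 microglia and macrophage markers summed to 399, 3009, 1704, 469 and 3582 TPM in knockout 1 to 5 and to 1117, 926, 31.6, 2542 and 815 TPM in wild-type 1 to 5. Knockout 2 and knockout 5, among the libraries with the most of these markers, were poor in rod transcripts. Wild-type 4, also among them, was rich in rod transcripts (520 TPM). Wild-type 3, with the least of these markers, was poor in rod transcripts too. The 12 bipolar cell markers summed to 272, 217, 123, 90.8 and 42.9 TPM in knockout and to 255, 351, 242, 120.0 and 60.6 TPM in wild-type libraries. Much of this sum was Isl1, which ganglion cells also make, and Grm6, the glutamate receptor of ON bipolar cells, peaked at 0.0749 TPM. The 12 Muller glia markers summed to 222 to 7879 TPM in knockout and 332 to 622 TPM in wild-type libraries. The top of that range, in knockout 5, was mostly Apoe (5651 TPM) and Vim (2118 TPM), while Rlbp1 stayed at or below 2.28 TPM and Aqp4 at or below 1.33 TPM in all libraries. The 12 amacrine cell markers summed to 540 to 1931 TPM in knockout and 879 to 1273 TPM in wild-type libraries. Calb2 led this sum in every library, while Gad1 stayed at or below 0.973 TPM and Chat at or below 1.68 TPM. Progenitor and cell cycle markers (12) summed to 3.89 to 37.4 TPM in knockout and 3.90 to 45.2 TPM in wild-type libraries. Horizontal cell markers (7) summed to 71.0 to 192 TPM in knockout and 64.8 to 468 TPM in wild-type libraries. Much of that sum was Tpm3, at up to 218 TPM, and Onecut1, at up to 161 TPM, while Lhx1 was listed at 0 in all libraries. Endothelial and pericyte markers (10) summed to 0.971 to 7.10 TPM in knockout and 5.37 to 59.8 TPM in wild-type libraries. Pigment epithelium markers (8) summed to at most 317 TPM in knockout (knockout 1) and at most 18.8 TPM in wild-type libraries. The value of knockout 1 was almost all Lrat, the retinoid acyltransferase (317 TPM), while Rpe65 and Mlana were listed at 0 in all libraries and Best1 led in wild-type 5, at 18.3 TPM. Red blood cell markers (5) reached 182 TPM in knockout 5 and 39.9 TPM in wild-type 4, of which the alpha globin gene Hba-a2 held 148 and 37.7 TPM. The part of these cells in the photoreceptor levels was not tested.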

How the data were processed

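RNA sequencing of 10 libraries was deposited by the authors as 1 table of log10(TPM + 1) values. Base and offset were read from the values, which sum to 1000000 TPM per library after back-transformation. The submitters' processing notes name TopHat2 2.0.10, Cufflinks and the build mm10. How reads were counted, with which annotation and whether by strand, is not given in the sources used here. Per the labels' protocols, cDNA was amplified before library construction.

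From these values, 26 entries with a number for a name (at most 0.198% of TPM) were left out, 240 repeated symbols were summed, and log2(TPM + 1) was tested with limma 3.58.1 in R 4.3.3 (genotype as the only term, mean-variance trend, Benjamini-Hochberg adjustment over the 11744 genes that reached 1 TPM in 5 or more libraries). A fold change on this scale understates the change of low genes. Satb1 also had an exact permutation test over 252 divisions. Marker lists of ganglion, bipolar, Muller glia, amacrine, horizontal, progenitor, microglia, endothelial, pigment epithelium and red blood cells were summed per library. Positions and overlaps come from GENCODE M21 (GRCm38). The 29 genes, the lists and the alternatives were chosen with earlier results of these data known. Values are printed for genes reaching 10 TPM in any library, and full statistics for the 5 with the smallest p. TPM keeps no depth, so no counting interval was computed. Separate litters make the replicates biological, per the labels.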

Additional observations from a re-analysis of the deposited data

Results flagged for a closer look

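Among 50 sets of 5 libraries of one genotype (22 photoreceptor genes, Satb1 and the rod and cone sums), 3 held a library whose distance from its nearest neighbour took up nearly the whole range. Chance gives about 1 set in 20 for normally distributed values. That rate does not hold for Arr3 and Pde6h, whose other 4 values were all 0, so that any value above 0 would have stood out. It cannot be relied on for Guca1a either, with 3 wild-type values at 0, or for other sets with several values of 0. All 3 concerned genes listed here as cone genes, in wild-type 5. Arr3 was at 68.5 TPM there and listed at 0 in the other wild-type libraries. Pde6h was at 71.7 TPM there and also listed at 0 in the others. Guca1a was at 45.9 TPM, against 0 to 0.741 TPM in the others. Wild-type 5 also had the highest rod and cone sums of all libraries.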

How the results depend on the processing

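The photoreceptor genes gave 0 calls at an adjusted p under 0.05 in all 20 alternative fits. The number of them tested changed with the fit. It ran from 9, without knockout 4, knockout 5 and wild-type 5, to 28, with no filter on low values. Over all genes limma called 0, but 1 with a filter on a mean of 5 TPM, 1 without the mean-variance trend and 3 with library weights; leaving out 1 library at a time gave 0 to 1. The replicate numbers paired the libraries only in part (correlations of residuals from -0.03 to 0.36 over 5 pairs, 3 of the 5 knockout libraries matching best with their own number), and with the numbers as a replicate block limma called 0 genes and 0 photoreceptor genes. The rod median ran from 0.04 to 1.33 and the cone median from -0.71 to 0.66 on leaving out 1 library. Both moved by less than the spread between libraries (2.47 and 1.72 on the log2 scale) under every alternative. That spread is larger than the medians themselves (0.74 and -0.13), so this comparison cannot show that they are stable. The cone median changed sign between alternatives. The largest values were 1.52 for rod and 1.25 for cone genes, with library weights. With 0.1 or 5 TPM added before the log in place of 1 TPM, the rod median was 1.23 or 0.33. Without the most abundant gene of the list in each library, the highest cone sum was 265 TPM and the lowest rod sum 11.8 TPM. At a level of 1 TPM in place of 10 TPM the photoreceptor genes reached per library numbered 4 to 25, and at 50 TPM 0 to 9. Rcvrn and Opn1sw missed the filter and had no value in some fits with fewer libraries. Unknown depth limits all statements on genes near 0.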
